A study of Mus musculus with 9 samples.

Results

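The Krüppel-like factors described here are 10 genes, *Klf2*, *Klf3*, *Klf4*, *Klf6*, *Klf7*, *Klf9*, *Klf10*, *Klf11*, *Klf13* and *Klf16*, taken by symbol from a table of 30588 mouse genes. RNA-Seq was carried out on CD11c+ cells selected with magnetic beads from bone marrow of C57BL/6J mice cultured for 6 days with GM-CSF, a growth factor that yields dendritic cells (DCs). There were 5 WT libraries and 4 Δ*Gnas* libraries, which the labels call Gnas_KO. Δ*Gnas* mice carry floxed *Gnas* alleles (*Gnas* fl/fl) and a Cre recombinase driven by the CD11c promoter, so they lose the α subunit of the stimulatory G protein, Gαs, in CD11c-expressing cells. The study describes this Cre as leaky, with a little *Gnas* left in the cells. No library received a treatment, neither the labels nor the study's text gives the age of the mice used for these libraries, and libraries are named here by genotype and the replicate number of their label (WT 3 to WT 7, and Δ*Gnas* 3, 4, 6 and 7).

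Krüppel-like factors are zinc finger transcription factors that bind GC-rich and CACCC sequences, the same elements that the related Sp factors bind. They fall into subgroups by what their N-terminal parts recruit. KLF2, KLF4, KLF6 and KLF7 belong to the group that mainly activates transcription through acetyltransferases such as p300 and CBP, KLF3 represses through the corepressor CtBP, and KLF9, KLF10, KLF11, KLF13 and KLF16 bind the SIN3 corepressor with its histone deacetylases. In myeloid cells the family is best known for KLF2, which restrains inflammatory activation, and KLF4, which is needed for monocyte differentiation. Gαs stimulates adenylyl cyclase to make cAMP, and cAMP acts on transcription largely through protein kinase A and CREB, a factor that binds the cAMP response element (CRE).

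*Klf9* was the Krüppel-like factor whose mRNA differed between genotypes by the test used here, so its promoter is shown. The run below is the 250 bases before the RefSeq start of *Klf9* on the plus strand (GRCm38.p6, chr19:23140976-23141225), 5′ to 3′, with capitals marking a CACCC box 84 to 80 bases before the start and a CRE core, TGACG, 46 to 42 bases before it.
*Klf9*: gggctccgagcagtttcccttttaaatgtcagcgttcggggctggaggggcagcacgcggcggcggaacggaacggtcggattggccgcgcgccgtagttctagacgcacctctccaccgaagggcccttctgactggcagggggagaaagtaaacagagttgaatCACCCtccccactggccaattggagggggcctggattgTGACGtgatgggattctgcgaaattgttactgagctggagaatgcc

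Promoters of 8 of the 10 members were in the RefSeq set (*Klf10* and *Klf16* were not), and both strands of the 250 bases before each start were searched. The CRE core TGACG lay in 4 of the 8, against 17.8% of 32851 mouse promoters of the same length. Its surroundings are set side by side because 3 of the 4 genes, *Klf2*, *Klf4* and *Klf13*, were not called between genotypes. Each line reads 5′ to 3′ on the strand of the gene, with the core in capitals; in *Klf4* it lies on the opposite strand and reads CGTCA.
*Klf2* (chr8:72318812-72318837, plus strand): ctggtttgtTGACGccgtcgccatag
*Klf4* (chr4:55532691-55532719, minus strand): ctgcctggctggCGTCAcggcctggcccc
*Klf9* (chr19:23141168-23141196, plus strand): gggcctggattgTGACGtgatgggattct
*Klf13* (chr7:63938955-63938983, minus strand): gtggctgggggcTGACGtcgggtccagat

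The full palindromic CRE, TGACGTCA, was found in 0 of the 8 promoters and in 1.55% of all promoters. A GC box, GGGCGG, was found in 7 of the 8, the exception being *Klf9*, and in 32.7% of all promoters. A CACCC box was found in 5 of the 8 and in 52% of all promoters, and a MEF2 site only in that of *Klf2* among the 8 and in 2.92% of all promoters. The 8 windows held 59.2 to 78.4% G and C, and the shares over all promoters were not matched for that. These matches describe letters in a window and do not show that a factor binds there.

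The deletion was read first. *Gnas*, which encodes Gαs, was at 532, 415, 404, 407 and 432 TPM (a transcript level scaled by transcript length and by library) in WT 3, 4, 5, 6 and 7, and at 48.0, 63.6, 53.4 and 58.1 TPM in Δ*Gnas* 3, 4, 6 and 7. The groups did not overlap, and the mean of 55.8 ± 6.67 TPM (SD, n = 4) in Δ*Gnas* DCs stood against 438 ± 53.8 TPM (SD, n = 5) in WT DCs. This is -2.96 on the log2 scale (SE 0.16, adjusted p = 2.849e-05, edgeR).

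Libraries held 34252701 to 49427934 estimated counts. WT 3 stood apart with 1.39% of its TPM on mitochondrial transcripts, against 5.85 to 8.54% in the other 8 libraries, and WT 7, labelled female, had 21.3 TPM of the Y-linked *Ddx3y*, where the male-labelled libraries had 23.9 to 41.9 TPM and the other female-labelled ones at most 0.16 TPM. *Itgax*, which encodes the CD11c used to select the cells, was at 88.3 to 279 TPM in WT DCs and at 331 to 415 TPM in Δ*Gnas* DCs. Other DC markers ranged from low levels, such as *Flt3* at 6.03 ± 3.44 TPM (SD, n = 5) in WT DCs and 5.42 ± 2.36 TPM (SD, n = 4) in Δ*Gnas* DCs, to high ones, such as the MHC class II gene *H2-Ab1* at 4209 ± 846 TPM (SD, n = 5) and 5628 ± 186 TPM (SD, n = 4). The libraries of a genotype are described by the study as biological replicates.

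All 10 members passed the filter on low counts, and *Klf6* was the most abundant in every library. In WT DCs the order of mean levels was *Klf6*, *Klf4*, *Klf13*, *Klf10*, *Klf2*, *Klf9*, *Klf16*, *Klf3*, *Klf7* and *Klf11*, from 313 ± 64.8 TPM for *Klf6* and 77.7 ± 31.7 TPM for *Klf4* down to 5.33 ± 1.60 TPM for *Klf11* (SD, n = 5). Of these neighbours, the ranges over the WT libraries were separate between *Klf6* and *Klf4* and between *Klf4* and *Klf13*, and overlapped for all the others. In Δ*Gnas* DCs the order was *Klf6*, *Klf4*, *Klf10*, *Klf13*, *Klf9*, *Klf2*, *Klf3*, *Klf16*, *Klf11* and *Klf7*, with separate ranges between *Klf6* and *Klf4*, *Klf13* and *Klf9*, and *Klf2* and *Klf3*.

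The 17 *Klf* genes found in the table summed to 413 to 724 TPM in WT DCs and 459 to 730 TPM in Δ*Gnas* DCs, ranges that overlap almost wholly. *Klf6* alone made up 47.8 to 67% of that sum over the 9 libraries. *Klf9* supplied 1.98 to 3.7% of it in WT DCs and 4.17 to 5.28% in Δ*Gnas* DCs. Within libraries, *Klf9* was lower than *Klf2* in 4 of 5 WT libraries and higher than *Klf2* in 4 of 4 Δ*Gnas* libraries.

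**Figure D1:**
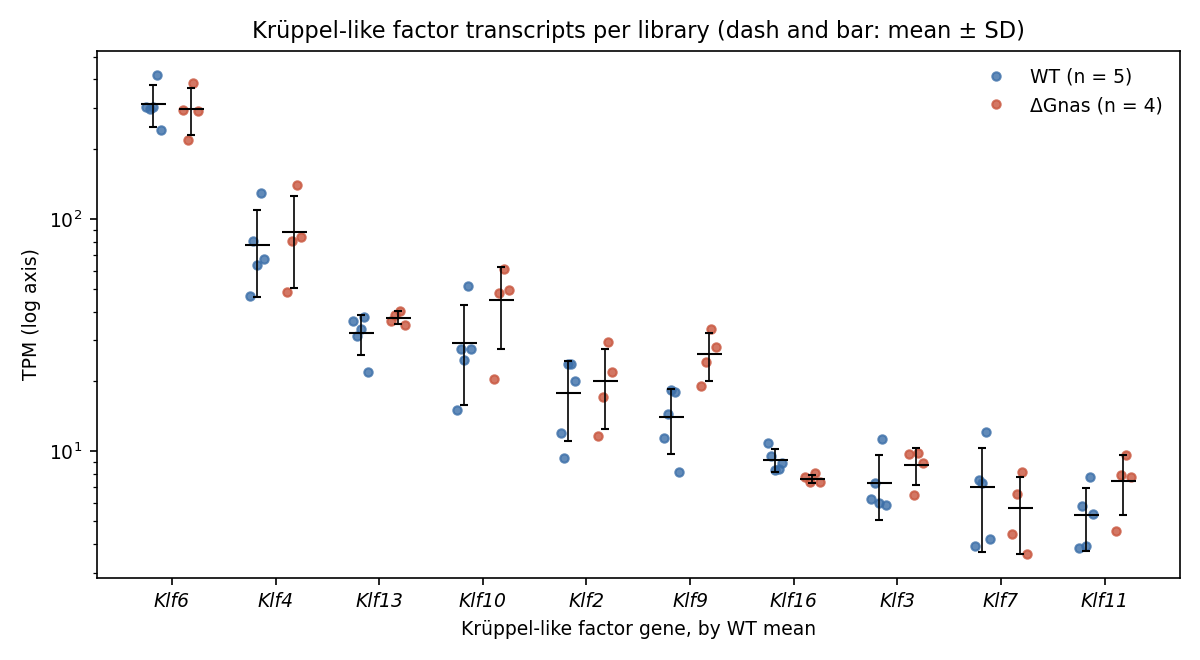
TPM of the 10 Krüppel-like factor genes (log axis) in 5 WT (blue) and 4 Δ*Gnas* (red) libraries, one point per library, with a dash for the mean and a bar for ± SD. The points of *Klf9* are separate between genotypes (8.16 to 18.4 TPM in WT, 19.2 to 33.7 TPM in Δ*Gnas*), as are those of *Klf16* (8.33 to 10.8 and 7.37 to 8.02 TPM), while those of the other 8 genes overlap.

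Of the 10 members, 1 was called higher in Δ*Gnas* DCs (*Klf9*) and 0 lower at an adjusted p under 0.05 by edgeR's quasi-likelihood test, where 5.41% of all 11862 tested genes were called higher and 4.15% lower. At an unadjusted p under 0.05 there was 1 member in each direction, *Klf9* higher and *Klf16* lower. The exact test of edgeR, DESeq2 and limma-voom each called 1 member higher and 0 lower as well. The fitted log2 fold change (Δ*Gnas* minus WT) was positive for 7 members and negative for 3, with a median of 0.21 beside -0.0043 over all tested genes. The 95% interval included 0 for 8 of the 10. In bulk RNA, fewer cells of a type and less RNA per cell cannot be told apart.

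**Figure D2:**
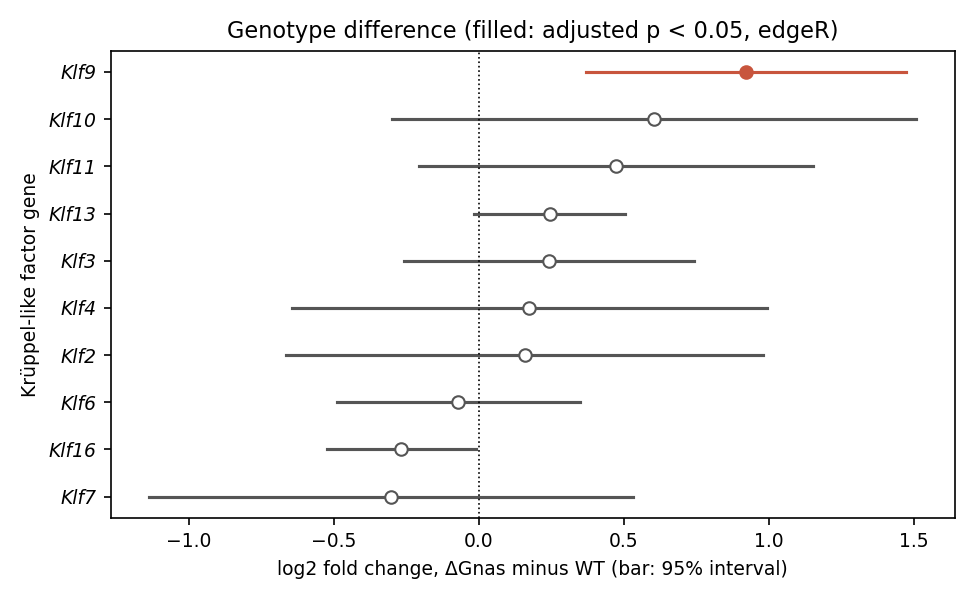
Log2 fold change (Δ*Gnas* minus WT, edgeR) of each Krüppel-like factor gene with its 95% interval, the filled point marking an adjusted p under 0.05. Only *Klf9* is filled, at 0.92 with an interval of 0.37 to 1.47, and the interval of *Klf10*, from -0.30 to 1.51, is the widest of the 10.

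*Klf9* encodes a SIN3-binding factor best known as a gene induced directly by glucocorticoid and thyroid hormone receptors. The gene lies at chr19:23141226-23168134 on the plus strand (GRCm38, the build of all gene positions here). Its mRNA was at 11.4, 14.5, 18.4, 18 and 8.16 TPM in WT 3, 4, 5, 6 and 7. It was at 19.2, 24.2, 33.7 and 28.1 TPM in Δ*Gnas* 3, 4, 6 and 7. Every Δ*Gnas* library was above every WT library, by the narrowest margin between Δ*Gnas* 3 and WT 5. Such a separation upward was seen for 1 of the 10 members (*Klf9*) and for 6.92% of all tested genes. The mean was 26.3 ± 6.15 TPM (SD, n = 4) against 14.1 ± 4.37 TPM (SD, n = 5). In the count fit the gene rose 1.89-fold (95% interval 1.29 to 2.77), which is 0.92 on the log2 scale (SE 0.25, adjusted p = 0.0447, edgeR).

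Whether the *Klf9* groups overlapped depended on the scaling. As CPM (counts scaled to library size) after TMM scaling (trimmed mean of M-values), Δ*Gnas* 3 was at 17.7, just under WT 5 at 18.1 and WT 6 at 18.2, while the other 3 Δ*Gnas* libraries stood at 25.6 to 33.7 and the other 3 WT libraries at 9.41 to 14.6. The direction held in 21 of 21 alternative settings and the call in 13, with log2 fold changes from 0.79 to 1.06 and adjusted p from 0.00537 to 0.128. Leaving out 1 library at a time, the call was lost without Δ*Gnas* 4 (log2 fold change 0.94, adjusted p = 0.0904, edgeR), Δ*Gnas* 6 (0.79, 0.128), Δ*Gnas* 7 (0.87, 0.118), WT 3 (0.80, 0.0797), WT 4 (0.93, 0.0866) or WT 7 (0.80, 0.085). It was kept without Δ*Gnas* 3, WT 5 or WT 6, where the fitted change was larger, at 1.03 to 1.06.

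**Figure D3:**
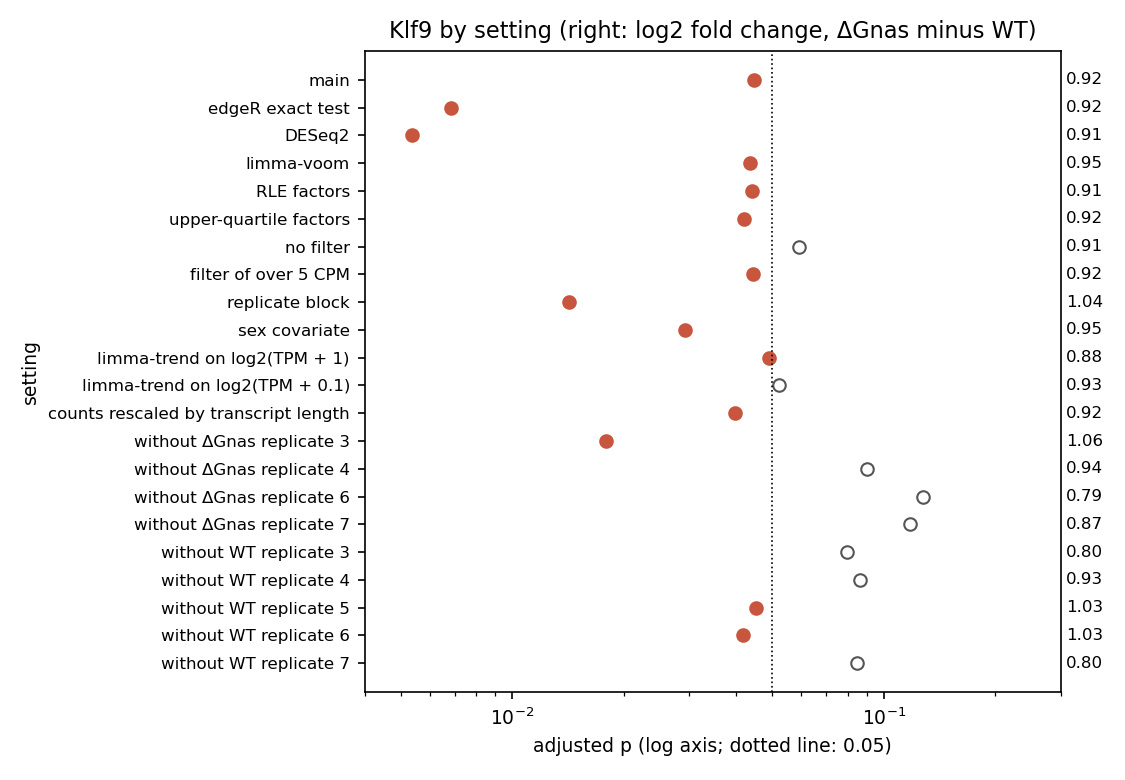
Adjusted p of *Klf9* (log axis, dotted line at 0.05) under the main setting and 21 alternatives, filled points being calls, with the log2 fold change (Δ*Gnas* minus WT) printed on the right. The fold change stays between 0.79 and 1.06 in every setting, and the call is lost in 8 of the 21 alternatives, 6 of which leave out a library.

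*Klf10* and *Klf11* encode the TGF-β-inducible early factors, which act with SMAD signalling. *Klf10* (chr15:38291463-38300706, minus strand) was at 15, 27.5, 24.6, 51.4 and 27.6 TPM in WT 3, 4, 5, 6 and 7, and at 20.4, 47.8, 61.2 and 49.6 TPM in Δ*Gnas* 3, 4, 6 and 7. WT 6 lay among the Δ*Gnas* libraries and Δ*Gnas* 3 among the WT libraries, so the groups overlapped at both ends. The log2 fold change was 0.61 (SE 0.41, 95% interval -0.30 to 1.51, adjusted p = 0.412, edgeR), and values from a small fall to a rise of over 1.5 on the log2 scale lie inside the interval. Each Δ*Gnas* library was above the WT library of the same number. With replicate number added to the fit as a block, *Klf10* was called (0.58, adjusted p = 0.0366, edgeR). The numbers are not stated to pair mice.

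*Klf11* (chr12:24651274-24662789, plus strand) was at 3.84, 5.79, 3.92, 7.74 and 5.35 TPM in the WT libraries in the same order, and at 4.52, 7.90, 9.65 and 7.73 TPM in the Δ*Gnas* libraries. As for *Klf10*, WT 6 was the highest WT library and Δ*Gnas* 3 the lowest Δ*Gnas* library. Its log2 fold change was 0.47 (SE 0.31, 95% interval -0.21 to 1.15, adjusted p = 0.392, edgeR).

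*Klf13* encodes a factor known in T cells for driving *Ccl5* late after activation. The gene (chr7:63886351-63938915, minus strand) was at 36.6, 31.4, 33.5, 37.8 and 21.9 TPM in WT DCs and at 36.4, 38.8, 40.4 and 34.9 TPM in Δ*Gnas* DCs. WT 4, WT 5 and WT 7 were below every Δ*Gnas* library, WT 7 by the most, while WT 3 and WT 6 lay within the Δ*Gnas* range. The log2 fold change was 0.24 (SE 0.12, 95% interval -0.01 to 0.50, adjusted p = 0.238, edgeR).

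*Klf16* encodes a repressor of the same subgroup. The gene (chr10:80567124-80577321, minus strand) was at 10.8, 9.51, 8.33, 8.37 and 8.93 TPM in WT DCs and at 7.73, 7.37, 8.02 and 7.40 TPM in Δ*Gnas* DCs. All 4 Δ*Gnas* libraries were below all 5 WT libraries, also as TMM-scaled CPM, a separation seen downward for 1 of the 10 members (*Klf16*) and for 3.72% of all tested genes in TPM. The means were 7.63 ± 0.308 TPM (SD, n = 4) and 9.20 ± 1.04 TPM (SD, n = 5). The difference was small, at a log2 fold change of -0.27 (SE 0.12, 95% interval -0.52 to -0.01), and did not pass the test (adjusted p = 0.194, edgeR). It was called in 0 of 21 alternative settings.

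Among the activating members, none passed the test. *Klf6*, first described as a tumour suppressor candidate and known in macrophages as a promoter of inflammatory gene expression (chr13:5861482-5870394, plus strand), was at 304, 298, 304, 419 and 242 TPM in WT 3, 4, 5, 6 and 7. In Δ*Gnas* 3, 4, 6 and 7 it was at 295, 219, 386 and 293 TPM. In both genotypes replicate 6 was the highest library, and the ranges lay within each other over most of their length. The log2 fold change of *Klf6* was -0.07 (SE 0.19, 95% interval -0.49 to 0.35, adjusted p = 0.864, edgeR), the most tightly bounded of the activating members.

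*Klf4*, also one of the factors used to reprogram fibroblasts to pluripotency (chr4:55527143-55532466, minus strand), was at 46.6, 80.8, 63.6, 129.9 and 67.5 TPM in WT DCs and at 48.4, 80.9, 139.7 and 84.0 TPM in Δ*Gnas* DCs. The lowest library of each genotype was replicate 3 and the highest was replicate 6, and the values of the 2 genotypes interleaved. Its log2 fold change was 0.17 (SE 0.37, 95% interval -0.64 to 0.99, adjusted p = 0.823, edgeR).

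*Klf2*, which keeps T cells quiescent and controls their trafficking (chr8:72319033-72321656, plus strand), was at 12, 9.33, 23.7, 23.6 and 20.1 TPM in WT DCs and at 11.7, 17.1, 29.6 and 22.0 TPM in Δ*Gnas* DCs. The WT libraries fell into a low pair, replicates 3 and 4, which are labelled male, and a higher set of 3, labelled female. Over both genotypes *Klf2* was at 9.33 to 17.1 TPM in male-labelled libraries and at 20.1 to 29.6 TPM in female-labelled ones. WT 7, with its doubtful label, was the lowest of the latter. A difference of *Klf2* between the sexes was not tested. The log2 fold change was 0.16 (SE 0.37, 95% interval -0.66 to 0.98, adjusted p = 0.841, edgeR).

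*Klf7*, known for its role in neuron growth (chr1:64029447-64122282, minus strand), ranged from 3.92 to 12.1 TPM in WT DCs and from 3.61 to 8.17 TPM in Δ*Gnas* DCs, with a log2 fold change of -0.30 (SE 0.37, 95% interval -1.14 to 0.53, adjusted p = 0.679, edgeR). An annotated long noncoding gene on the other strand, *Gm26649*, shares 3196 exonic bases with *Klf7*. The library kit kept strand, but whether the quantification used it is not given in the sources used here, so reads of the pair may have been mixed.

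*Klf3*, the CtBP-binding repressor (chr5:64803388-64832901, plus strand), was at 6.22, 7.29, 5.96, 11.3 and 5.85 TPM in WT DCs and at 9.71, 6.48, 9.81 and 8.90 TPM in Δ*Gnas* DCs. WT 6 was above every Δ*Gnas* library and Δ*Gnas* 4 was below WT 4, while the other 3 Δ*Gnas* libraries were above the other 4 WT libraries. The log2 fold change was 0.24 (SE 0.22, 95% interval -0.26 to 0.74, adjusted p = 0.565, edgeR). It shares 404 exonic bases with *Gm20033* on the other strand.

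Of the remaining *Klf* genes, 7 of 8 looked for were found. *Klf8*, a CtBP-binding relative of *Klf3*, was the only one of them tested, at 2.71 ± 0.979 TPM (SD, n = 5) in WT DCs and 2.82 ± 0.854 TPM (SD, n = 4) in Δ*Gnas* DCs (log2 fold change 0.10, adjusted p = 0.887, edgeR). *Klf5* reached at most 0.464 TPM and *Klf1*, the erythroid factor, at most 0.236 TPM. *Klf12*, *Klf15* and *Klf17* stayed under 0.1 TPM in every library and *Klf14* was listed at 0 in all 9.

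The members tended to be high or low in the same libraries within a genotype. As TMM-scaled CPM, Δ*Gnas* 6 was the highest Δ*Gnas* library for 9 of the 10 members, where it was the highest for 21.4% of all tested genes, and WT 6 was the highest WT library for 8, against 20% of all tested genes. At the other end, Δ*Gnas* 3 was the lowest Δ*Gnas* library for 7 members (35.7% of all tested genes) and WT 3 the lowest WT library for 7 (24.3%). The low end depended on the scaling. In TPM, Δ*Gnas* 3 was the lowest for 5 members, and WT 3 and WT 7 were each the lowest WT library for 4. WT 3 was also the highest WT library for *Klf16* in TPM. Δ*Gnas* 6 was the highest for 10 members in TPM and WT 6 for 7. WT 3 is the library with the low mitochondrial share. Its part in these values was not tested, and *Klf9* without it is given above.

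**Figure D4:**
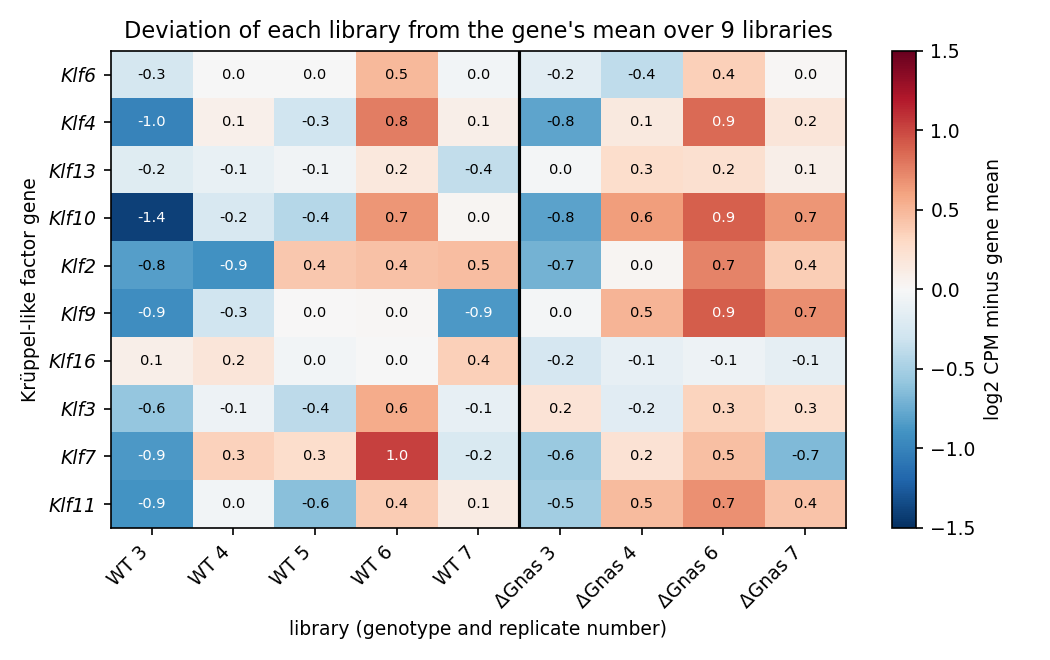
Deviation of each library (columns, genotypes parted by a line) from the mean log2 CPM of each Krüppel-like factor gene over the 9 libraries (rows, in the order of WT means), blue being lower and red higher. The columns of WT 6 and Δ*Gnas* 6 are mostly red and those of WT 3 and Δ*Gnas* 3 mostly blue. The rows of *Klf13* and *Klf16* span the least, from -0.37 to 0.26 and from -0.25 to 0.36.

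Genes that work with the family were read from the same fit. The Sp factors, which share the binding sites, had 0 of 4 tested genes called and a median log2 fold change of -0.02. *Sp3*, the most abundant, was at 30.9 ± 7.61 TPM (SD, n = 5) in WT DCs and 32.6 ± 5.26 TPM (SD, n = 4) in Δ*Gnas* DCs. Among 9 subunits of the CtBP, SIN3 and deacetylase complexes, 0 were called higher and 1 lower, with a median of -0.04. That gene was *Hdac1*, a histone deacetylase of the SIN3 complex, which fell from 49.9 ± 7.16 TPM (SD, n = 5) to 36.2 ± 6.26 TPM (SD, n = 4), or by 0.45 on the log2 scale (SE 0.10, adjusted p = 0.0217, edgeR). The call of *Hdac1* was lost without Δ*Gnas* 4 (adjusted p = 0.0702, edgeR), Δ*Gnas* 6 (0.0621) or Δ*Gnas* 7 (0.0789), within a range of 0.00113 to 0.1 over its 21 alternatives.

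The acetyltransferases that bind activating members had 0 of 4 genes called (median -0.14), with *Kat2b* at 14.5 ± 2.83 TPM (SD, n = 5) in WT DCs and 12.9 ± 1.64 TPM (SD, n = 4) in Δ*Gnas* DCs. The ERK5 and MEF2 genes, which in endothelium control *Klf2* and *Klf4*, had 0 of 7 tested genes called. Their fitted changes were negative in all 7, with a median of -0.21. *Mef2a* was the most abundant of them, at 41.7 ± 12.2 TPM (SD, n = 5) and 35.7 ± 6.93 TPM (SD, n = 4). Ubiquitin ligases reported to act on family members had 0 of 4 called (median -0.21), with *Smurf1* at 33.4 ± 10.05 TPM (SD, n = 5) and 27.6 ± 8.62 TPM (SD, n = 4).

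Genes described elsewhere as regulated by KLF2 or KLF4 had 8 of 12 tested, of which 0 were called higher and 1 lower, with a median of -0.61. The one called was *Thbd*, which encodes thrombomodulin, an anticoagulant receptor that KLF2 induces in endothelium. It was at 2.99, 3.62, 3.03, 3.67 and 2.59 TPM in WT 3, 4, 5, 6 and 7 and at 1.12, 1.77, 1.80 and 1.62 TPM in Δ*Gnas* 3, 4, 6 and 7. The groups did not overlap, and *Thbd* fell by 0.998 on the log2 scale (SE 0.23, adjusted p = 0.0247, edgeR), a call lost without Δ*Gnas* 6 (0.0534), Δ*Gnas* 7 (0.0633) or WT 4 (0.0568), within a range of 0.000855 to 0.0633 over its 20 alternatives. Neither *Klf2* nor *Klf4* was called in either direction. Of 11 tested macrophage markers, 7 were called lower in the same libraries, with a median of -1.19 over the list, and *Cd14* is counted in both lists. Their part in the values of the KLF2 and KLF4 list was not tested.

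The TGF-β and SMAD genes, which bear on *Klf10* and *Klf11*, had 11 tested, 0 called higher and 1 lower (median -0.18). This was *Smad4*, the common partner of receptor-activated SMADs, at 34.5 ± 6.95 TPM (SD, n = 5) in WT DCs and 25.4 ± 4.85 TPM (SD, n = 4) in Δ*Gnas* DCs. On the log2 scale it changed by -0.43 (SE 0.11, adjusted p = 0.0363, edgeR). The call of *Smad4* held in 11 of 21 alternatives (adjusted p 0.00848 to 0.193) and was lost without Δ*Gnas* 4 (0.126), 6 (0.107) or 7 (0.115) and without WT 3 (0.0741), 4 (0.0909) or 5 (0.0734).

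Glucocorticoid-induced genes and *Nr3c1*, which encodes the glucocorticoid receptor, were read together beside *Klf9*, itself a glucocorticoid-induced gene. Of 8 tested, 0 were called, and the median was -0.21. There were 3 positive fitted changes, that of *Nr3c1* (0.17) among them, and 5 negative ones. *Dusp1* and *Per1* of this list also stand in the cAMP list described next. *Dusp1*, a phosphatase of MAP kinases and the most abundant of them, was at 495 ± 109 TPM (SD, n = 5) in WT DCs and 377 ± 40.3 TPM (SD, n = 4) in Δ*Gnas* DCs (log2 fold change -0.42, adjusted p = 0.336, edgeR). *Tsc22d3*, which encodes the glucocorticoid-induced leucine zipper and was picked after its values were seen, had the highest fitted change of the 8, at 0.44 (95% interval 0.06 to 0.81, adjusted p = 0.143, edgeR).

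Early genes of cAMP and CREB had 13 tested, with 0 called higher and 3 lower and a median of -0.60. *Pde4d* and *Pde4b*, which encode phosphodiesterases that degrade cAMP, fell by 2.52 and 1.37 on the log2 scale (adjusted p = 0.00249 and 0.00879, edgeR). *Crem*, which encodes a CREB-family factor, fell by 1.89 (adjusted p = 0.00499, edgeR). These 3 kept their calls in 21 of 21 alternatives.

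Markers of cells that a GM-CSF culture can hold moved with genotype in part. Of 11 tested macrophage markers 7 were called lower and 0 higher, and the summed level of the list was 3779 to 8796 TPM in WT DCs and 1641 to 2314 TPM in Δ*Gnas* DCs. Fitted changes were negative for 9 of these 11. The exceptions were *Csf1r* (means 466 and 468 TPM, log2 fold change 0.02) and *Emr1* (121 and 123 TPM, 0.01), neither called. Of 12 DC markers 3 were called higher (*Itgax*, *H2-Ab1* and *Sirpa*) and 2 lower (*Zbtb46* and *Ccr7*), with sums of 14606 to 26068 and 20177 to 24512 TPM. Of 6 tested eosinophil markers 2 were called higher, *Ear1* and *Siglecf*, and 0 lower (69.6 to 540 and 91.1 to 257 TPM). Fitted changes were positive for 5 of these 6. The exception was *Ear2*, the most abundant of that list in WT DCs (means 195 and 83.4 TPM, log2 fold change -1.15, not called). Neutrophil markers had 0 of 6 tested called (93.3 to 296 and 149 to 938 TPM). Their fitted changes were positive for 5 and negative for 1, *Retnlg* (-0.23), with a median of 1.14. Monocyte markers had 0 of 6 tested called (168 to 835 and 360 to 883 TPM), with 4 positive and 2 negative changes and a median of 0.24. T cell markers had 2 of 4 tested, *Cd4* and *Cd3g*, called higher at low levels (2.81 to 5.99 and 4.73 to 12.1 TPM). The genotypes overlapped in TPM for *Cd3g*. Of the 4 fitted changes 3 were positive and 1 negative, that of *Cd8a* (-1.41, not called). Mast cell and basophil markers had 1 of 3 called lower, *Kit* (10.6 to 22.9 and 7.92 to 16.3 TPM). The other tested genes of that list, *Mcpt8* and *Prss34*, had positive fitted changes (2.22 and 0.68) and were not called. B cell markers summed to at most 5.48 TPM, NK cell markers to at most 58.9 TPM, and endothelial and stromal markers to at most 9.66 TPM, with 0 called in each. In the NK list *Klrk1* reached 58.3 TPM, while *Ncr1*, *Gzma* and *Klrb1c* reached at most 0.169, 0.103 and 2.44 TPM. *Cma1*, a defining gene of mast cells, was listed at 0 in every WT library and reached at most 0.0764 TPM in Δ*Gnas* DCs. The part of these cell types in the level of any Krüppel-like factor was not tested.

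The labels give the sex of each mouse. An interaction of genotype with labelled sex was called for 0 of 11862 genes by edgeR (172 at an unadjusted p under 0.05), and for the 10 members the unadjusted edgeR p ran from 0.214 to 0.923. WT 7 carries Y-linked transcripts against its label. Besides *Ddx3y*, *Eif2s3y* was at 72.8 TPM there. *Eif2s3y* was at 63.9 to 74.5 TPM in the male-labelled libraries and at most 0.0325 TPM in the other female-labelled ones. In WT 7, *Kdm5d* (4.60 TPM) and *Uty* (3.04 TPM) lay between the levels of male-labelled and other female-labelled libraries. The interaction and the covariate fits below therefore rest on labels that are doubtful for 1 library. With labelled sex as a covariate, *Klf9* had a log2 fold change of 0.95 (adjusted p = 0.0293, edgeR). In that fit *Klf2* stood at 0.33 (adjusted p = 0.272, edgeR).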

How the data were processed

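RNA was isolated by the authors with on-column DNase digestion from CD11c+ bone marrow DCs of 5 WT and 4 Δ*Gnas* mice. Stranded mRNA libraries were sequenced and trimmed with BBDuk. Reads were assigned with Kallisto 0.43.1 to Ensembl 79 transcripts (GRCm38) and summed to genes with tximport. The deposited table holds TPM and estimated counts, both made by the authors, for 30620 rows. Of these, 32 that name no gene (27 dates, 5 placeholders) held 0.0843 to 0.121% of the counts and were left out. The deposited estimated counts equal TPM times 1 factor per library, so they carry no transcript length and do not give a gene's number of reads.

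Estimated counts were rounded and tested by edgeR 4.0.16 (glmQLFit, glmQLFTest) in R 4.3.3 in place of the study's edgeR exact test, which was an alternative. Genes over 1 CPM in at least 3 libraries (11862) were tested with TMM factors and Benjamini-Hochberg adjustment at 0.05. The SE was obtained by dividing the size of the log2 fold change by the root of its F statistic. TPM gave levels, and TMM-scaled CPM (prior count 2 for log2 values) gave deviations. Groups came from the genotype labels. The comparison was unpaired, since replicate numbers are not stated to pair mice. Same-numbered libraries also did not deviate together for every number. Scripts were tested on simulated data.

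Alternatives were the exact test, DESeq2 1.42.0, limma-voom and limma-trend (limma 3.58.1; log2(TPM + 1) and log2(TPM + 0.1)), RLE and upper-quartile factors, no filter or over 5 CPM, a replicate block, a sex covariate, leaving out each library and, chosen after seeing the data, counts rescaled by transcript length. The members and lists were chosen with earlier results of these data known. Named were all members, other *Klf* genes, *Gnas*, *Ddx3y*, up to 4 called genes of each list by smallest p, and in a list with no call its most abundant gene in WT DCs. Single cell type markers, *Tsc22d3* and the Y-linked genes other than *Ddx3y* were named after their values were seen. Gene positions are from GENCODE M21 (GRCm38) and promoters from RefSeq (GRCm38.p6).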

Additional observations from a re-analysis of the deposited data

Results flagged for a closer look

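*Klf3* was at 11.3 TPM in WT 6, far above the other 4 WT libraries at 5.85 to 7.29 TPM, the gap being 0.733 of the whole range. *Gnas* was at 532 TPM in WT 3, above the other 4 WT libraries at 404 to 432 TPM, a gap of 0.784 of the range. There were 24 groups of libraries looked at in this way, all in TPM, and chance singles out about 5% of groups. As TMM-scaled CPM, *Gnas* was at 441 in WT 3, and WT 7 was the highest WT library, at 524. *Klf3* in WT 6 was at 11.4 on that scale, against 5.16 to 7.34 in the other 4 WT libraries.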

How the results depend on the processing

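*Klf9* was called higher in 13 of 21 alternatives, *Klf10* in 1 and the other 8 members in none. The number of members called higher was 0 without a filter (*Klf9* adjusted p = 0.059, edgeR) and 0 with limma-trend on log2(TPM + 0.1) (0.0521), and 0 to 1 when 1 library was left out. With a replicate block it was 2, *Klf10* joining *Klf9* at a log2 fold change of 0.58 (adjusted p = 0.0366, edgeR). Deviations of same-numbered libraries correlated at 0.294, -0.042, 0.248 and 0.163 for replicates 3, 4, 6 and 7, and not every library correlated best with its own number, so the numbers are not taken as pairs. The number called lower stayed at 0. Leaving out 1 library gave 299 to 800 genes called higher over all genes and 220 to 786 lower, and DESeq2 gave 817 lower where the main test gave 492. The sign of uncalled members turned when 1 library was left out: *Klf2* (-0.077 to 0.36) without Δ*Gnas* 6 (-0.077), WT 3 (-0.010) or WT 4 (-0.0090), *Klf4* (-0.12 to 0.43) without Δ*Gnas* 6 (-0.12) or WT 3 (-0.0095), *Klf6* (-0.22 to 0.058) without Δ*Gnas* 4 (0.035) or WT 6 (0.058) and *Klf8* (-0.16 to 0.25) without Δ*Gnas* 7 (-0.16) or WT 7 (-0.069). The cause was not tested. No scaling moved the median of all genes by 0.1. Depth in reads per gene is not known, since the counts carry no length.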
